A study of Mus musculus with 12 samples.

Results

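The triad genes followed here, in mouse gastrocnemius and quadriceps after spaceflight, were Ryr1, Cacna1s, Cacnb1, Cacng1, Jph1, Jph2, Stac3, Bin1, Dysf and Trdn. They were chosen by name, as genes that build or serve the triad of skeletal muscle, with earlier results of these data known. All 10 were among the 36008 genes of the deposited expression table, and all 10 passed the filter on low values that left 10481 genes. The same names took 23 of the 2423 skipped-exon and mutually exclusive exon events listed for the gastrocnemius, of which 23 passed the read and inclusion filters, and 23 of the 2416 events listed for the quadriceps, of which 22 passed.

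At the triad a T-tubule, which is an inward fold of the muscle cell membrane, lies between a pair of terminal cisternae of the sarcoplasmic reticulum. Depolarisation moves the voltage sensor, the L-type calcium channel of the T-tubule, and this opens the ryanodine receptor of the facing cisterna, so that stored calcium is released and the fibre contracts. The process is known as excitation-contraction coupling. In mammalian skeletal muscle the sensor acts on the release channel through physical contact, so adaptor and scaffold proteins are as much a part of it as the channels. Exons of several of these genes are known to be switched during muscle development.

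The samples came from 6 female mice, aged 30 weeks when a 9-week period began. The groups were Flight, 3 mice kept on the International Space Station (M11, M12 and M20), and Ground, 3 mice kept in matched hardware on Earth (M02, M03 and M08). Every mouse gave 1 gastrocnemius and 1 quadriceps, so there were 4 groups of 3 libraries, and replicates within a group were separate mice. All mice, controls included, carried no genetic change named in the labels and had received injections of phosphate-buffered saline every 2 weeks as the control arm of a drug study. The labels give the strain as C57BL/6, whereas the methods of the study name BALB/c, and the strain cannot be settled from these files. Carcasses were frozen and then thawed on wet ice before the left hind limb muscles were taken.

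Expression values were TPM, the share of a gene's transcripts among all transcripts after correction for transcript length, so that levels can be compared between genes. TPM summed to between 923295 and 966638 per library over the genes of the table. Splicing was measured as percent spliced in (PSI), the share of junction reads, corrected for the number of positions, that include an exon. The samples in a splicing table are given by list position only, without a mouse name, and held 777760 to 1246850 junction reads over all listed events and 13505 to 25677 over the 23 events of the triad genes. The third ground sample of the quadriceps stood apart, with the fewest reads and no read at all in 79 events, none of them an event of a triad gene. Markers of skeletal muscle were abundant throughout, Acta1 at 15946 TPM or more and Ckm at 11935 TPM or more. Of 6 markers of heart muscle, Actc1 was at 38.4 to 152 TPM, Myh6 at 42.2 to 109 TPM and Tnnt2 at 3.37 to 6.38 TPM, while Mybpc3, Nppa and Tnni3 were at 1.20 TPM or less in every library. In whole muscle, fewer cells of a type and less RNA per cell cannot be told apart.

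The results turn on a few small exons, whose sequences are given here so that the events can be recognised. Capitals mark the exon and lower case the 15 bases on either side in the spliced transcript, read 5′ to 3′ on the strand of the gene from the GENCODE vM21 transcripts (GRCm38, the build of the splicing tables). The first pair are the small exons of Ryr1 at chr7:29056234-29056248 and chr7:29044919-29044936, exons 70 and 83 of the 106 exons of transcript Ryr1-202 on the minus strand. Next come exons 4, 5 and 6 of the 38 exons of Trdn-201, at chr10:33158246-33158278, chr10:33175769-33175828 and chr10:33183954-33184016 on the plus strand. The last pair are exon 6 of Dysf-201 at chr6:84064471-84064563 and exon 41 of Dysf-215 at chr6:84157139-84157201, both on the plus strand. All of them are coding.
Ryr1 exon 70: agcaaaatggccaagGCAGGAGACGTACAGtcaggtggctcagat
Ryr1 exon 83: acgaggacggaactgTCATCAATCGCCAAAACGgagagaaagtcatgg
Trdn exon 4: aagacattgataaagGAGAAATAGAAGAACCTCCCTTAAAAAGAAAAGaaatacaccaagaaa
Trdn exon 5: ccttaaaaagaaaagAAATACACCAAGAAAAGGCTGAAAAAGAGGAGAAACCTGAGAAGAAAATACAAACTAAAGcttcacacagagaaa
Trdn exon 6: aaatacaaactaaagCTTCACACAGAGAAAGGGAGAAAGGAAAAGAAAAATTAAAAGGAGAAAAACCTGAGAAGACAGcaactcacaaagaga
Dysf exon 6: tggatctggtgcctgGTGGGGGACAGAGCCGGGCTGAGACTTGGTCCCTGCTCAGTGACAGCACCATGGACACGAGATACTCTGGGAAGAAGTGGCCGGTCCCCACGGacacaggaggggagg
Dysf exon 41: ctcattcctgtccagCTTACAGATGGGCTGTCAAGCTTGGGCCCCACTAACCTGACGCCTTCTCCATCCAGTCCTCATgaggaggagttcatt

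Each of the 7 exons has a length that is a multiple of 3, so that skipping it keeps the reading frame. The lengths are 15 and 18 bases in Ryr1, 33, 60 and 63 bases in Trdn, and 93 and 63 bases in Dysf. The Ryr1 exons are short beside the median of 92 bases over the 1509 skipped exons kept in the gastrocnemius, of which 69.1% had a length divisible by 3. The 3 exons of Trdn are rich in adenine, at 54.5%, 58.3% and 55.6% of their bases, against 33.3% in Ryr1 exon 70.

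Ryr1, the calcium release channel itself, held the 1 event of the 22 kept in both muscles whose ground and flight samples did not overlap and differed by more than 5 percentage points, in the same direction, in both. Of all 1858 events kept in both muscles, 1.88% did so. The event was exon 70, which encodes one of the pair of short segments of the channel, often called ASI and ASII, that are known to be left out more often in immature muscle. In the gastrocnemius its PSI was 69.1, 68.4 and 69.4% in the ground samples and 77.9, 77.4 and 78.0% in the flight samples. The ground and flight groups did not overlap, and the mean was 8.77 percentage points higher after flight (69.0 ± 0.549% against 77.7 ± 0.329%, SD, n = 3 each).

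These values rest on 935 to 985 inclusion reads and 315 to 340 skipping reads per ground sample, and on 1478 to 1845 inclusion and 331 to 401 skipping reads per flight sample. With limma (moderated linear models) on the log ratio of inclusion to skipping reads, over all 2118 events kept, exon 70 had an adjusted p of 0.165. It did not pass the threshold of 0.05. A quasi-binomial model of the same reads gave an adjusted p of 0.0717, again above the threshold.

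In the quadriceps the same exon was at 66.0, 67.5 and 60.3% in the ground samples and at 72.3, 76.0 and 73.3% in the flight samples. Again the groups did not overlap and flight was higher, by 9.26 points (64.6 ± 3.79% against 73.9 ± 1.91%, SD, n = 3 each). The lowest ground value belonged to the third list position, the library with the fewest reads, and without it the difference was 7.11 points. The adjusted p was 0.54 with limma and 0.194 with the quasi-binomial model. Between the muscles the flight difference of exon 70 did not differ detectably, with an adjusted p of 0.994 for the interaction. Because the same mice gave both muscles, the pair of muscles is not a pair of independent observations.

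Exon 83, the second of the short Ryr1 segments, gave a different pattern: it separated the muscles and not the conditions. In the gastrocnemius its PSI was 78.9, 80.6 and 77.6% on the ground and 78.0, 78.7 and 74.4% after flight. In the quadriceps it was 89.8, 88.4 and 92.9% on the ground and 90.5, 91.0 and 90.4% after flight. Every quadriceps sample was above every gastrocnemius sample.

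The difference between muscles was 11.3 points on the ground (adjusted p = 0.000486, limma over 1858 events kept in both muscles) and 13.6 points after flight (adjusted p = 0.000198). This comparison was added after the data had been seen. Both values came from a single fit of all 12 samples, so their spread also draws on the samples of the other condition. Exon 83 passed on leaving out each of the 6 samples compared in either condition, with 10.1 to 12.3 points on the ground and 12.3 to 14.4 points after flight. The flight differences were −2.01 points in the gastrocnemius, where the groups overlapped, and 0.264 points in the quadriceps. Exon 70 gave −4.38 points between the muscles on the ground, quadriceps minus gastrocnemius, with an adjusted p of 0.471 in limma.

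**Figure D1:**
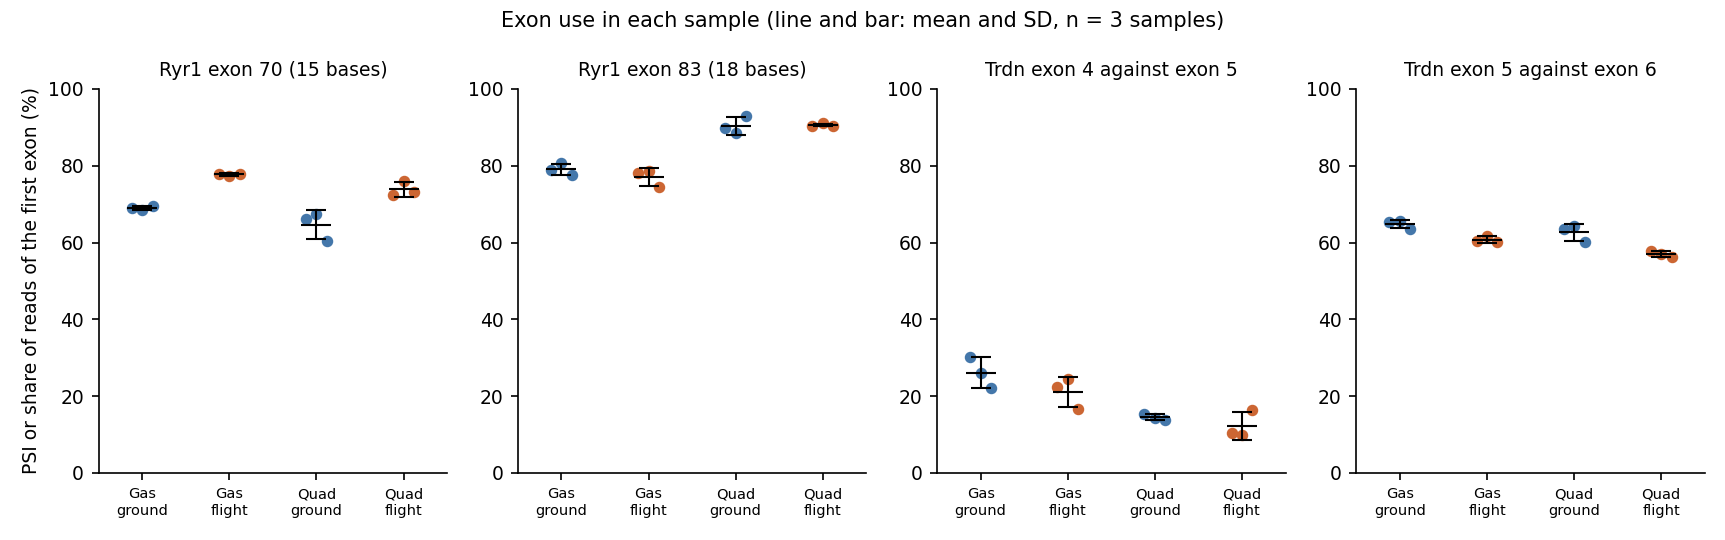
Share of junction reads that include the exon (Ryr1) or that are assigned to the first exon of a pair (Trdn), in %, on axes from 0 to 100, for each of the 12 samples in the gastrocnemius (Gas) and quadriceps (Quad) of ground (blue) and flight (orange) mice. The horizontal line and bar give the mean and SD of 3 samples; Ryr1 exon 70 is higher after flight in both muscles, and Ryr1 exon 83 and Trdn exon 4 differ between the muscles.

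Trdn encodes triadin, the membrane protein of the terminal cisterna that links the release channel to the calcium-binding protein calsequestrin, and it held 12 of the 23 listed events. Of these, 10 were mutually exclusive pairs and 2 were skipped exons. In a mutually exclusive event the value is the share of reads assigned to the exon nearer the 5′ end, and reads that join the 2 exons to each other belong to neither count. For all 12 pairs of the triad genes, the 10 of Trdn, 1 of Jph2 and 1 of Bin1, an annotated transcript holds both exons, as it did for 92.1% of the 609 such events kept in the gastrocnemius. These values are therefore a balance of junction reads between neighbouring exons and need not describe a choice of one exon over the other.

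The balance of Trdn exon 4 against exon 5 differed between the muscles. The share of exon 4 was 30.2, 25.9 and 22.2% in the gastrocnemius on the ground and 15.4, 14.3 and 13.8% in the quadriceps on the ground. After flight it was 22.2, 24.4 and 16.7% in the gastrocnemius and 10.4, 9.71 and 16.3% in the quadriceps. Every quadriceps sample was lower than every gastrocnemius sample of the same condition. The difference, quadriceps minus gastrocnemius, was −11.6 points on the ground (adjusted p = 0.0148, limma) and −8.94 points after flight (adjusted p = 0.0305).

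Of the 6 samples compared in each condition, leaving out any of 4 lost the call. On the ground it was lost without list position 1 or 2 of the gastrocnemius and without list position 2 or 3 of the quadriceps, with an adjusted p of at most 0.0914. After flight it was lost without list position 1 or 2 of either muscle, with an adjusted p of at most 0.154. The flight differences of the pair were −5.02 points in the gastrocnemius and −2.35 points in the quadriceps, with overlapping groups. Exon 2 against exon 5 counts nearly the same exon 5 reads, 1404 beside 1408 in list position 1 of the ground gastrocnemius. Between the muscles it gave −7.43 points on the ground (adjusted p = 0.127, limma) and −6.75 points after flight (adjusted p = 0.203). Which exon carries the difference was not tested.

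The balance of Trdn exon 5 against exon 6 did not overlap between ground and flight in either muscle. In the gastrocnemius the share of exon 5 was 65.3, 65.5 and 63.6% on the ground and 60.4, 61.8 and 60.0% after flight, a difference of −4.10 points. In the quadriceps it was 63.5, 64.3 and 60.0% on the ground and 57.9, 56.9 and 56.2% after flight, a difference of −5.63 points. Flight samples were lower in both muscles, and the adjusted p was 0.621 in the gastrocnemius and 0.663 in the quadriceps. Further along the gene, exon 23 against exon 25 was at 47.7, 48.4 and 49.1% on the ground and 34.6, 38.5 and 46.0% after flight in the gastrocnemius, without overlap, and its adjusted p was 0.589. In the quadriceps that pair was at 47.9, 49.6 and 49.5% on the ground and 51.5, 48.0 and 44.5% after flight, with overlapping groups. The other 10 Trdn events, exon 4 against exon 5 among them, overlapped between ground and flight in both muscles, with differences from −5.02 to 5.26 points in the gastrocnemius and from −2.35 to 3.70 points in the quadriceps.

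Cacnb1 encodes the beta subunit that holds the voltage sensor in the T-tubule membrane and places it opposite the release channel. Its 1 event was exon 7 of Cacnb1-203, at chr11:98011343-98011497, which at 155 bases is the only skipped exon among the 11 of the triad genes whose length is not a multiple of 3. In the gastrocnemius no skipping read was seen in any ground sample, beside 104, 67 and 62 inclusion reads, and 3, 2 and 5 skipping reads were seen in the flight samples, beside 108, 89 and 133 inclusion reads. Pooled over a group, a count of 0 on the ground allows skipping of up to 2.51%, and the flight value was 5.71%. PSI was 100% in all ground samples and 94.7, 95.7 and 93.01% after flight, with an adjusted p of 0.0634 in limma. The quasi-binomial model gave 0.277. In the quadriceps exon 7 had 2 skipping reads on the ground and 2 after flight, and it left the analysis there because PSI was at or above 95% in all 6 samples.

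Dysf encodes dysferlin, a membrane protein that acts in sarcolemma repair and is also found at T-tubules. It was the least abundant of the 10 genes, and its 3 events had few reads. Exon 41 was included at 12, 14.3 and 12% in the ground and 23.8, 36.0 and 36.0% in the flight samples of the gastrocnemius, without overlap, on 14 to 26 reads per sample. The adjusted p was 0.452. In the quadriceps it was at 33.3, 7.41 and 100% on the ground, the last value resting on 8 reads of list position 3, and at 33.3, 4.35 and 31.0% after flight. With that position the difference was −24.0 points and without it 2.53 points.

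Exon 6 of Dysf was at 13.0, 16.4 and 8.24% in the ground samples and at 4.0, 4.92 and 4.76% in the flight samples of the quadriceps. Flight was lower by 8.01 points without overlap, and the adjusted p was 0.689. The flight values rest on 2 to 4 inclusion reads per sample. In the gastrocnemius the same exon was at 15.6, 10.9 and 21.3% on the ground and at 20%, 28.1% and 17.6% after flight, with overlapping groups. After flight the difference between the muscles, quadriceps minus gastrocnemius, was −17.4 points (adjusted p = 0.0264, limma). Leaving out any of 5 of the 6 samples compared lost the call, which was the case without list position 1 or 2 of the gastrocnemius or without any list position of the quadriceps. On the ground that difference was −3.36 points (adjusted p = 0.848), and the interaction of flight and muscle had an adjusted p of 0.70. Exon 17 of Dysf-204 overlapped between ground and flight in both muscles.

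Bin1 encodes amphiphysin 2, a protein that bends membranes and is needed to form T-tubules. Its 4 events concerned exons 12 and 16 of the 19 exons of Bin1-201, which share reads with one another. In the event that ends at exon 17, exon 12 was included at 6.90, 1.23 and 13.2% on the ground in the gastrocnemius. After flight it was included at 17.6, 33.3 and 27.3% there. These values rest on 12 to 41 reads per sample. The groups did not overlap and flight was 19.0 points higher, with an adjusted p of 0.359. In the quadriceps the difference was −5.25 points, with overlapping groups. In the event that ends at exon 16, exon 12 was at 11.1, 2.86 and 25.9% on the ground in the gastrocnemius. After flight it was at 37.5, 15.8 and 39.4% there. The quadriceps gave 12.5, 31.0 and 71.4% on the ground and 26.7, 14.3 and 23.1% after flight. The groups overlapped in both muscles, and the highest ground value of the quadriceps again belonged to list position 3. Both exon 12 events count nearly the same inclusion reads and differ in skipping reads. In list position 1 of the ground gastrocnemius the event ending at exon 17 had 4 inclusion and 27 skipping reads. The event ending at exon 16 had 5 and 20.

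In Jph2, which encodes a junctophilin, the share of exon 2 against exon 3 was 79.0, 81.3 and 82% on the ground and 83.1, 82.0 and 78.1% after flight in the gastrocnemius. The quadriceps gave 89.2, 85.2 and 87.5% on the ground and 84.9, 86.6 and 82.2% after flight. The groups overlapped in both muscles. No event was listed for Cacna1s, Cacng1, Jph1 or Stac3.

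Across the triad genes, 0 of 23 events in the gastrocnemius and 0 of 22 in the quadriceps passed the threshold for flight, an adjusted p under 0.05 with more than 5 points. Over all events 0.378% passed in the gastrocnemius and 0.0% in the quadriceps. At an unadjusted p under 0.05 there were 5 of 23 and 1 of 22, against 9.49% and 7.81% of all events. The quasi-binomial model also passed none of these events, and passed 1.32% and 0.824% of all. Groups did not overlap and differed by more than 5 points in 5 of 23 events of the gastrocnemius and 3 of 22 of the quadriceps, where all events gave 13.3% and 10.6%. The shares over all events are not matched for depth. Triad events had a median of 410 junction reads in the gastrocnemius and 636.5 in the quadriceps, beside 35 and 36.8 over all events. With 3 samples a group, an exact permutation test of a single event cannot go below 0.1. For the interaction of flight and muscle 0 of 22 events passed, beside 0.161% of all. Between the muscles 2 of 22 events passed on the ground and 3 of 22 after flight, beside 6.46% and 5.65% of all events kept in both muscles.

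**Figure D2:**
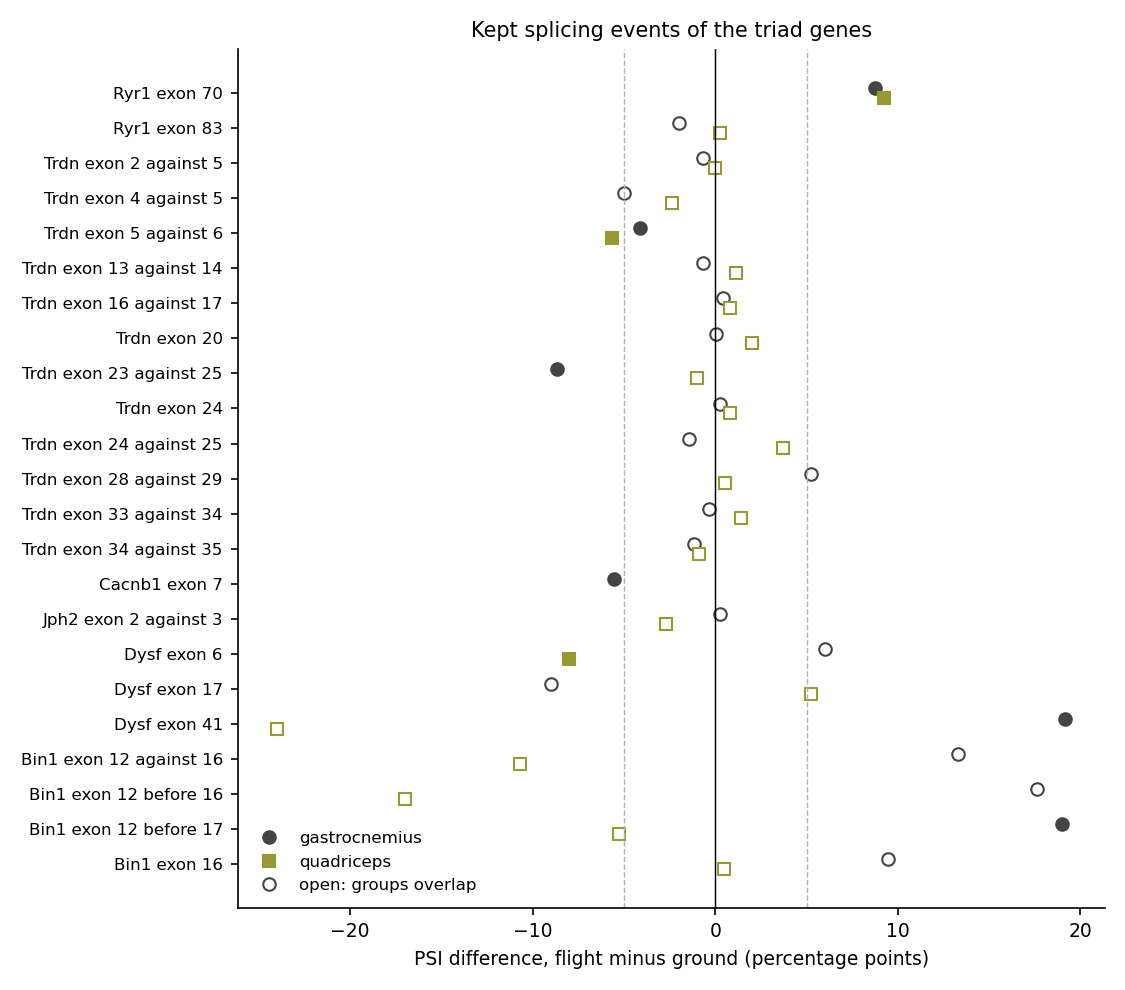
PSI difference, flight minus ground, in percentage points, for each kept event of the triad genes in the gastrocnemius (circles) and quadriceps (squares). Filled symbols mark events whose 3 ground and 3 flight samples did not overlap and open symbols those that did; dashed lines mark 5 points. Ryr1 exon 70 lies at 8.77 and 9.26 points, and the events of Dysf and Bin1, with few reads, spread the widest.

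Expression levels of the 10 genes fell into a steep order that was nearly the same in all 4 groups. Trdn was highest, at 1267 ± 35.2 TPM in the gastrocnemius and 1896 ± 175 TPM in the quadriceps of ground mice (SD, n = 3). Ryr1 followed at 1084 ± 35.4 and 1152 ± 42.3 TPM, and then Cacna1s, the pore and voltage-sensing subunit of the L-type channel, at 363 ± 21.3 and 431 ± 14.2 TPM. Below them came Bin1, then Stac3 and Jph2, then Jph1, Cacng1, Cacnb1 and, at 43.7 ± 3.22 and 46.8 ± 1.23 TPM, Dysf. Over the 12 libraries the mean of each of the 10 genes lay above that of 83.4% or more of the genes kept.

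Neighbours in this order whose ranges overlapped were Stac3 and Jph2 in all 4 groups, Jph1 and Cacng1 in both gastrocnemius groups, and Bin1 and Stac3 in the flight quadriceps. In the ground quadriceps Jph2 stood above Stac3, and elsewhere below it. Every other neighbouring pair was separated in every group.

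**Figure D3:**
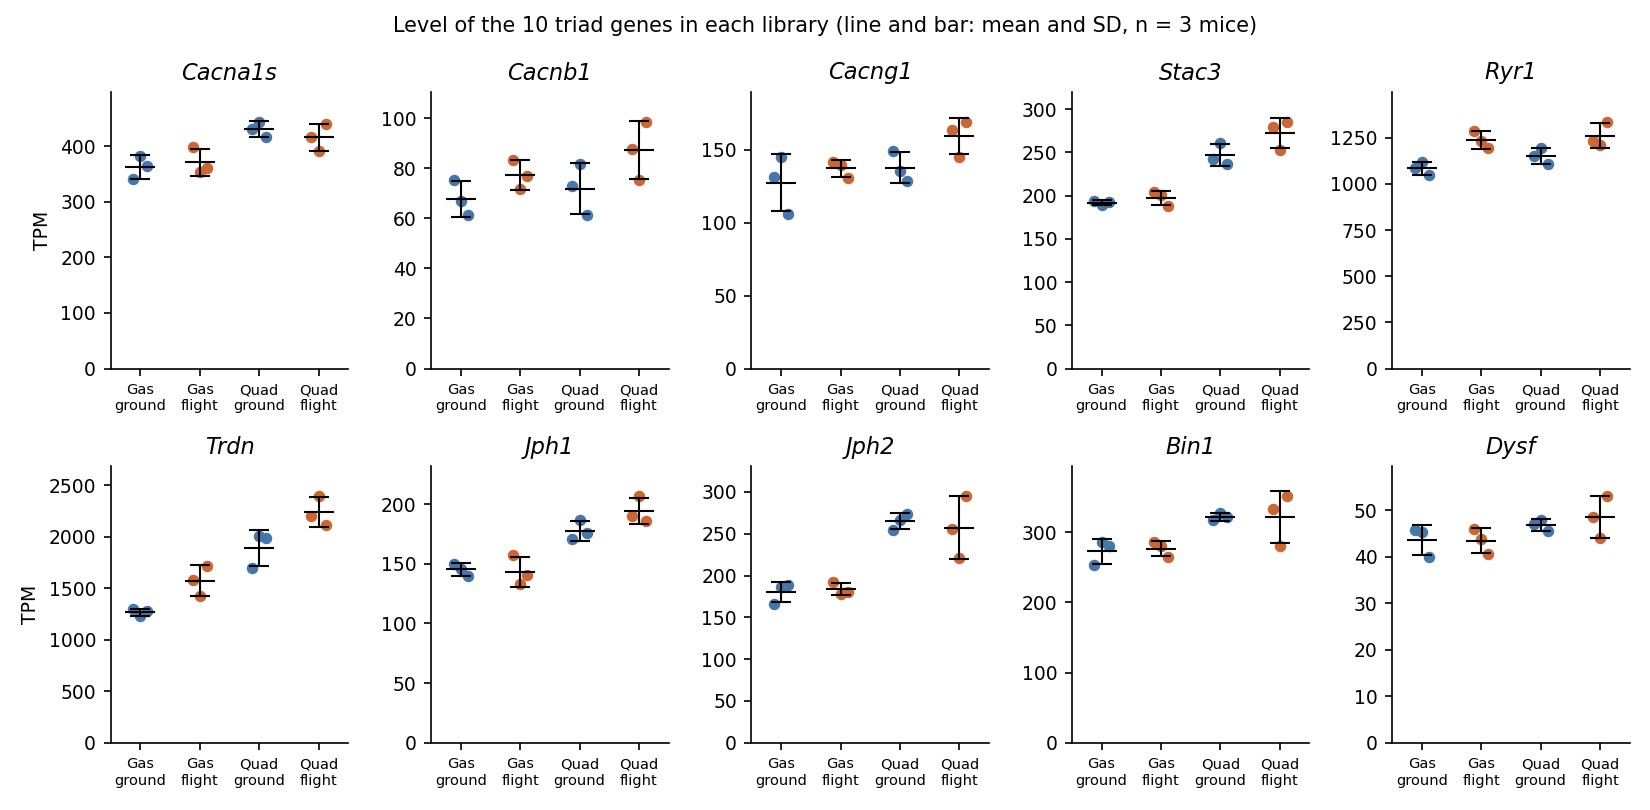
TPM of the 10 triad genes in each library of the gastrocnemius (Gas) and quadriceps (Quad) of ground (blue) and flight (orange) mice, on linear axes from 0. The horizontal line and bar give the mean and SD of 3 mice; flight and ground libraries of Trdn and Ryr1 do not overlap in either muscle.

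Flight against ground asks whether the level of these genes changed with spaceflight. None of the 10 passed the threshold, an adjusted p under 0.05 with more than 1.5-fold, in either muscle, where 0.229% of all genes passed in the gastrocnemius and 0.0286% in the quadriceps. At an unadjusted p under 0.05 there were 2 of 10 in the gastrocnemius and 1 of 10 in the quadriceps, against 15.1% and 10.8% of all genes. Fitted changes were above 0 for 8 of 10 genes in the gastrocnemius and 7 of 10 in the quadriceps, against 53.6% and 52.0% of all genes. After libraries were rescaled by the median ratio they were above 0 for 6 of 10 and 7 of 10, with Bin1 and Jph2 turning to below 0 in the gastrocnemius. Their medians on the log2 scale were 0.04 and 0.13, beside 0.02 and 0.01 over all genes. Groups did not overlap, with flight higher, for 2 of 10 genes in each muscle, where 12.5% and 9.24% of all genes did so. Those 2 genes were Trdn and Ryr1 in both muscles, and 3.06% of all genes were higher without overlap in both.

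Trdn was at 1295, 1227 and 1277 TPM in the gastrocnemius of ground mice M02, M03 and M08, and at 1584, 1423 and 1721 TPM in flight mice M11, M12 and M20. In the quadriceps of the same mice it was at 1694, 2008 and 1985 TPM on the ground and at 2203, 2399 and 2121 TPM after flight. All flight libraries were above all ground libraries of the same muscle. On the log2(TPM + 1) scale the difference was 0.31 (95% interval 0.12 to 0.51) in the gastrocnemius, with an adjusted p of 0.190 in limma, and 0.24 (0.03 to 0.45) in the quadriceps, with an adjusted p of 0.421. Leaving out any 1 library kept it between 0.25 and 0.38 in the gastrocnemius and between 0.16 and 0.29 in the quadriceps.

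Ryr1 was at 1087, 1118 and 1048 TPM in the gastrocnemius on the ground and at 1286, 1231 and 1194 TPM after flight. In the quadriceps it was at 1152, 1195 and 1110.05 TPM on the ground and at 1234, 1209 and 1337 TPM after flight. The groups did not overlap, though in the quadriceps the gap between the highest ground and the lowest flight library was small. The log2 difference was 0.19 (95% interval 0.04 to 0.34) in the gastrocnemius and 0.13 (−0.03 to 0.29) in the quadriceps. The adjusted p was 0.257 for the former and 0.525 for the latter. On leaving out any 1 library the difference was 0.16 to 0.22 in the gastrocnemius and 0.09 to 0.16 in the quadriceps, where the lowest value came without flight mouse M20.

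Across the whole table the flight difference varied with transcript length, and the longest annotated transcript of Ryr1 has 15358 bases. Among the 254 genes with a transcript over 10000 bases, the median log2 difference was 0.12 for the gastrocnemius and 0.11 for the quadriceps. Of these genes 77.6% and 74.4% were above 0. Among the 2507 genes with transcripts up to 2000 bases the medians were −0.06 and −0.06. Ttn, the gene of the giant sarcomere protein titin, was at 7264 to 8091 TPM on the ground and 8875 to 9219 TPM after flight in the gastrocnemius, and at 7066 to 7731 and 8299 to 8447 TPM in the quadriceps, again without overlap. These length classes were set after the Ryr1 values had been seen. Trdn, with 4514 bases, falls in a length class whose medians were 0.02 and 0.01. The part of length in these results was not tested.

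Cacna1s, which encodes the voltage sensor that faces the release channel, overlapped between ground and flight in both muscles. It was at 341, 384 and 364 TPM on the ground and 399, 354 and 362 TPM after flight in the gastrocnemius, a log2 difference of 0.03 (−0.15 to 0.22). In the quadriceps it was at 432, 445 and 416 TPM on the ground and at 416, 392 and 441 TPM after flight, a difference of −0.05 (−0.21 to 0.11). The ratio of Ryr1 to Cacna1s within a library was 3.19, 2.91 and 2.88 on the ground and 3.22, 3.48 and 3.30 after flight in the gastrocnemius. In the quadriceps the ratio was 2.67, 2.69 and 2.67 on the ground and 2.97, 3.09 and 3.03 after flight. Flight libraries had the higher ratio in both muscles without overlap. The ratio of Trdn to Cacna1s also separated in both muscles. It was 3.20 to 3.80 on the ground and 3.97 to 4.76 after flight in the gastrocnemius. In the quadriceps it was 3.93 to 4.77 and 4.81 to 6.12. The ratios of Cacnb1, Cacng1, Stac3 and Dysf were higher after flight without overlap in the quadriceps and overlapped in the gastrocnemius. Those of Jph1, Jph2 and Bin1 overlapped in both muscles. The ratios were chosen after the levels had been seen and were given no test. How many of all genes would separate in this way was not counted. Cacna1s is the divisor of every ratio, and its own log2 difference in the quadriceps was −0.05.

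The smaller subunits and the adaptor of the channel overlapped between ground and flight in both muscles. Cacnb1 was at 67.7 ± 7.06 and 77.3 ± 5.94 TPM in the ground and flight gastrocnemius and at 71.9 ± 10.3 and 87.2 ± 11.7 TPM in the quadriceps (SD, n = 3). Cacng1, the gamma subunit, was at 128 ± 19.7 and 137 ± 5.75 TPM in the gastrocnemius and at 138 ± 10.4 and 159 ± 12.5 TPM in the quadriceps. Stac3, the adaptor that is needed for the sensor to act on the release channel, was at 192 ± 2.80 and 198 ± 8.05 TPM in the gastrocnemius and at 247 ± 12.7 and 273 ± 17.7 TPM in the quadriceps. Their log2 differences lay between 0.04 and 0.28, and the lowest adjusted p of the 3 genes was 0.415 in the gastrocnemius and 0.466 in the quadriceps.

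The scaffold and membrane genes also overlapped between ground and flight. Jph1 and Jph2, junctophilins that tie the sarcoplasmic reticulum to the T-tubule, had log2 differences of −0.02 and 0.03 in the gastrocnemius and of 0.13 and −0.05 in the quadriceps. Bin1 differed by 0.02 and −0.01 and Dysf by −0.01 and 0.05. The widest of their intervals, that of Jph2 in the quadriceps, ran from −0.31 to 0.21. For the interaction of flight and muscle none of the 10 genes passed, with 0.0% of all genes passing, and the fitted differences lay between −0.08 and 0.15.

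Fibre-type markers differed with flight in the gastrocnemius. The summed level of 10 slow-fibre genes was 2056 to 2515 TPM on the ground and 1341 to 1587 TPM after flight there, and 3 of the 10 passed the threshold, all lower, beside 0.229% of all genes. None of the 10 passed without ground mouse M02 or M03 or flight mouse M12 or M20, or with the replicate number as a block. The same held without the filter on low values, without a trend in the prior variance, and with all 12 libraries in a single fit. Without M08 1 passed, and without M11 4 did. The sum of 10 fast-fibre genes was 74734 to 76050.5 TPM on the ground and 79847 to 83373 TPM after flight. Of these genes 8 were above 0 and 2, Myh2 and Myl1, below, where 53.6% of all genes were above 0, and 0 passed. Myh2 was lower after flight without overlap in both muscles. It was at 1048 to 1362 and 896 to 974 TPM in the gastrocnemius and at 915 to 1048 and 714 to 799 TPM in the quadriceps. In the quadriceps the slow-fibre and the fast-fibre sums overlapped between ground and flight. The slow-fibre sum spread widely there, at 1088 to 2628 TPM on the ground and 1530 to 2074 TPM after flight. Of the 10 slow-fibre genes 3 were above 0 in the quadriceps and 7 below, and 0 passed. Leaving out 1 library moved the number above 0 between 0, without ground mouse M02, and 5, without ground mouse M08. The summed level of 8 fat cell genes was lower after flight without overlap in both muscles, at 389.9 to 490.04 TPM on the ground and 343 to 385 TPM after flight in the gastrocnemius and at 490.4 to 798 and 357 to 449.7 TPM in the quadriceps. In the gastrocnemius only Lpl separated, at 207.5 to 227.5 TPM on the ground and 145 to 164 TPM after flight. Adipoq, Plin1, Cidec, Retn, Cfd, Fabp4 and Lep overlapped there. In the quadriceps Lpl and Lep overlapped, and Adipoq, Plin1, Cidec, Retn, Cfd and Fabp4 were lower without overlap. Summed levels of the heart muscle markers were 159.9 to 195 TPM on the ground and 122 to 143 TPM after flight in the gastrocnemius and overlapped in the quadriceps. Those of blood, endothelium, macrophages, tendon and nerve overlapped in both muscles. The part of fibre type and of other cells in the results above was not tested.

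**Figure D4:**
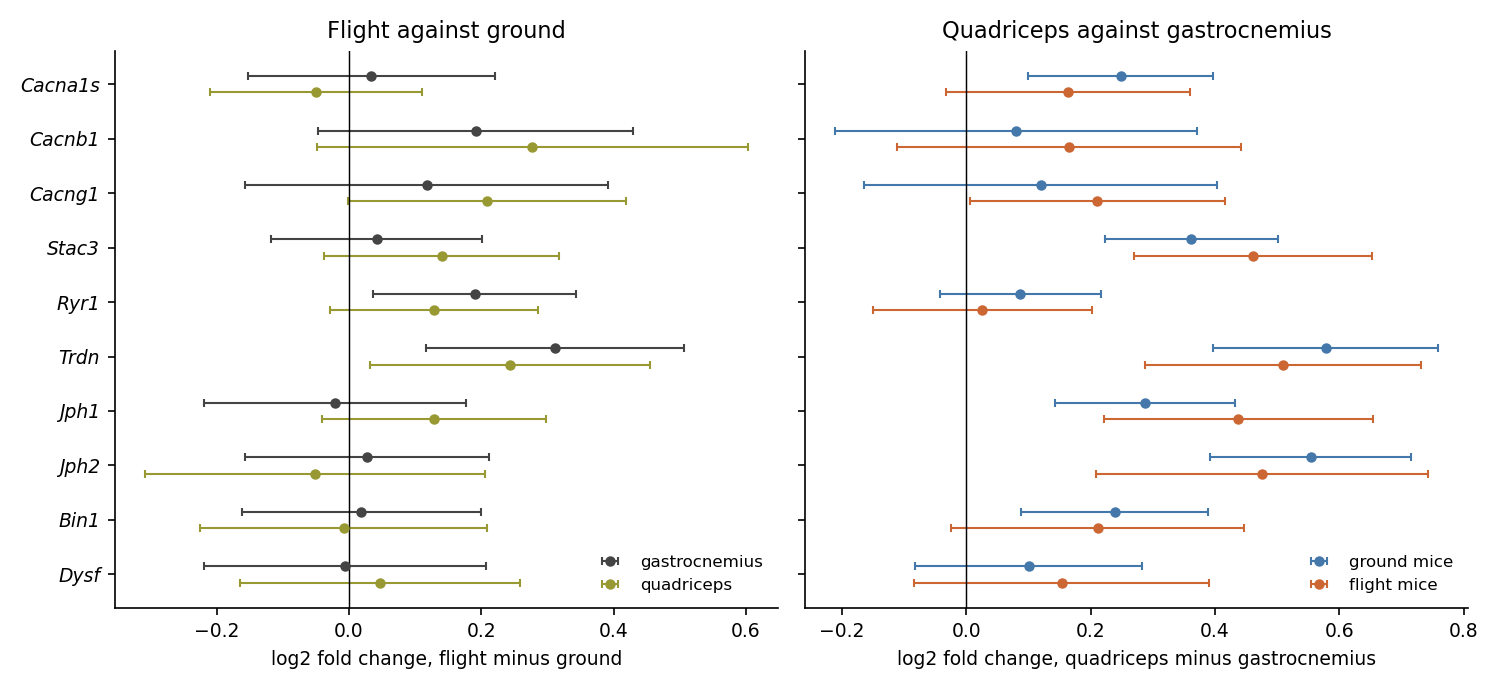
Difference of each triad gene on the log2(TPM + 1) scale with its 95% interval from limma; left, flight minus ground in the gastrocnemius (grey) and quadriceps (olive); right, quadriceps minus gastrocnemius in ground (blue) and flight (orange) mice. Trdn lies farthest above 0 on the left in the gastrocnemius, and on the right all 10 genes lie above 0, with Cacnb1 and Ryr1 on the ground and Ryr1 after flight turning to below 0 when libraries are rescaled by the median ratio.

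The differences between the muscles, quadriceps minus gastrocnemius on the log2(TPM + 1) scale, had a median of 0.24 over the 10 genes on the ground and 0.21 after flight. Fitted differences were above 0, meaning a higher level in the quadriceps, for all 10 genes on the ground and after flight as deposited, and for 8 and 9 of them after rescaling by the median ratio, which turned Ryr1 in both conditions and Cacnb1 on the ground. Of all genes 67.7% and 66.7% were above 0. The median of all genes was itself shifted to the quadriceps by 0.12 on the ground and 0.11 after flight (log2), so values are also given relative to it. No triad gene passed the threshold with 1.5-fold on the ground or after flight, while 2.21% and 1.66% of all genes did. With the adjusted p alone, 4 of 10 passed on the ground and 2 of 10 after flight, against 8.84% and 2.45% of all genes. Groups did not overlap, with the quadriceps higher, for 6 of 10 genes on the ground and 5 of 10 after flight, against 28.3% and 24.4%.

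Trdn and Jph2 differed most on the ground. Trdn was higher in the quadriceps by 0.58 on the log2 scale (adjusted p = 0.0119, limma), or by 0.46 relative to the median gene. Jph2 was at 166, 186 and 189 TPM in the gastrocnemius and at 255, 266 and 274 TPM in the quadriceps of the same mice, which is 0.55 higher (adjusted p = 0.0112), or 0.44 relative to the median. Stac3 was higher by 0.36 (adjusted p = 0.0193) and Jph1 by 0.29 (adjusted p = 0.0368). With the mouse as a block, Jph2 (adjusted p = 0.0285) and Trdn (0.0347) passed and Stac3 (0.0515) and Jph1 (0.0754) did not. The same 2 genes passed with libraries rescaled by the median ratio.

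After flight Stac3 was higher in the quadriceps by 0.46 (adjusted p = 0.0411) and Trdn by 0.51 (adjusted p = 0.0446). With the mouse as a block these were 0.0540 and 0.0596, and neither passed with rescaling. Leaving out any 1 mouse, which leaves 2 per muscle, no triad gene passed on the ground or after flight. The release channel differed little between the muscles: Ryr1 was higher in the quadriceps by 0.09 on the ground and by 0.03 after flight, both below the shift of the median gene. Fast-fibre markers differed between the muscles, with a summed level of 105021 to 116451 TPM in the ground quadriceps and 74734 to 76050.5 TPM in the ground gastrocnemius. Of these 10 genes 8 were higher in the ground quadriceps, where 67.7% of all genes were. The other 2, Myh1 and Myh2, were lower, by −0.25 and −0.24 on the log2 scale. Schwann cell and nerve markers summed to 69.6 to 98.9 TPM in the quadriceps and 160.2 to 236 TPM in the gastrocnemius on the ground, and their part was not tested.

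Other genes of the T-tubule, the triad and the sarcoplasmic reticulum were followed in a list of 54, of which 51 were in the table and 43 passed the filter. In the gastrocnemius 18 of the 43 were above 0 and 25 below after flight, where 53.6% of all genes were above 0. At an unadjusted p under 0.05 there were 5, against 15.1% of all genes, and only Atp2a2 passed, against 0.229%. Atp2a2, the calcium pump of slow fibres and heart, was at 169.6, 150.4 and 145 TPM on the ground and 88.1, 74.8 and 89.0 TPM after flight, a log2 difference of −0.88 (adjusted p = 0.0361, limma). It also belongs to the slow-fibre markers. The call was lost on leaving out any 1 library but that of flight mouse M11, with a log2 difference of −0.92 to −0.80 and an adjusted p of up to 0.192, and with the replicate number as a block (adjusted p = 0.0796). It was also lost in limma without the filter on low values (adjusted p = 0.155) and without a trend in the prior variance (0.0804). With all 12 libraries in a single fit the adjusted p was 0.112. The next in order of p were Calm3, a calmodulin gene, with a log2 difference of 0.42 (adjusted p = 0.217), and Hspb6, a small heat shock protein, with −0.46 (adjusted p = 0.224).

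In the quadriceps 23 of the 43 were above 0 and 20 below, where 52.0% of all genes were above 0. None passed in limma, and 3 had an unadjusted p under 0.05, against 10.8% of all genes. The smallest p belonged to Hspb6 at −0.47 (adjusted p = 0.307), Cacna1c, the L-type channel gene of heart, at 0.45 on means of 3.0 and 4.44 TPM (adjusted p = 0.411), and Orai1, the store-operated calcium channel, at −0.33 (adjusted p = 0.445). Between the muscles 33 of the 43 were above 0 on the ground and 35 after flight, beside 67.7% and 66.7% of all genes and the shift of the median gene given above. Of the 43, 12 and 6 had an adjusted p under 0.05, all of them higher in the quadriceps, against 8.84% and 2.45% of all genes. Rescaling by the median ratio left 5 in each condition, 1 of those on the ground being lower in the quadriceps, and leaving out any 1 mouse left 0.

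Over the 12 libraries, which share mice and muscles, the genes whose log2(TPM + 1) was most like that of Ryr1 were Gpd1 (Pearson r = 0.945), Ctcf (0.933) and Tnrc6b (0.904) among 10480 genes. The closest triad gene was Cacnb1 (r = 0.845), which ranked at position 42, and Trdn had r = 0.557. These values describe the libraries and carry no test.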

How the data were processed

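Polyadenylated RNA of 12 mouse muscle samples was sequenced by the authors with reads of 50 bases, and the mice were grouped by the labels. Expression was deposited as TPM, which the authors made with kallisto 0.46.0, per the submitters' processing notes. The splicing tables were deposited by the authors as rMATS output on STAR 2.7.1a alignments to mm10, and their other values are lists of junction reads and inclusion levels of 3 samples in 1 cell. Their columns of p-values, false discovery rates and inclusion differences hold the authors' own comparisons and were not used. DESeq2 1.26.0 appears in the submitters' notes and needs read counts of genes, so it was not applied here.

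From these files, genes were kept where any of the 12 libraries exceeded 5 TPM (1 was enough) and were tested with limma 3.58.1 (R 4.3.3, prior variance as a trend) on log2(TPM + 1), and a gene passed at an adjusted p under 0.05 with more than 1.5-fold. Fold changes on this scale understate those of low genes, and library depth is not given by TPM. Splicing events were kept where both groups averaged more than 10 junction reads, and were dropped where PSI stayed within 5% of either extreme (0 to 5%, or 95 to 100%) throughout the 6 samples. They were tested with limma on the log2 ratio of inclusion to other junction reads, each count raised by 0.5 and scaled to the number of positions that can yield such a read, and passed at an adjusted p under 0.05 with more than 5 points. All tests were two-sided with Benjamini-Hochberg adjustment over all genes or events kept. PSI was recomputed from the reads and lay within 0.05 points of the deposited values. Limits at a count of 0, taken as 3 counts over the group, cover counting error only. The 95% intervals of expression come from limma and rest on the spread between libraries, moderated over genes. Splicing between the muscles was tested after the data had been seen, with both conditions in a single fit of all 12 samples. The steps were tested on simulated data.

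The triad genes, the other gene lists and the marker lists were chosen with earlier results of these data known. All 10 triad genes were named. An event was described where it had the smallest p of its gene in a muscle, or differed by more than 5 points without overlap. Exon 83 of Ryr1 and exon 4 against exon 5 of Trdn were added for the comparison of muscles. Of the other triad genes, those past the threshold or the 3 with the smallest p were named, and the 3 genes most like Ryr1. Titles show that each mouse gave both muscles, so the mouse was used as a block in the interaction and as an alternative between muscles; the correlation of a mouse's deviations in both muscles was −0.119 to 0.333. Exons were numbered by the longest protein-coding GENCODE vM21 transcript that holds them. No sample column was left unused (0). Alternatives were another pseudocount, filter, scaling, prior, block or model, and leaving out each sample.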

Additional observations from a re-analysis of the deposited data

How the results depend on the processing

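For flight and for its interaction with muscle, the number of triad genes or events that passed was 0 in all 57 alternatives. The edgeR test on junction reads that had been planned was not run, because the reads are stored as lists, and a quasi-binomial model was used in its place after the data had been seen. Of 113 alternatives for counts, the 57 for flight and the interaction included, 93 stayed within 1.5 times the first count and 20 were lower. A first count of 0 cannot fall, so those 57 could only stay or rise.

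Between the muscles, triad genes past the adjusted p alone numbered 4 on the ground and 1 without the filter, 2 with rescaling and 2 with the mouse as a block; after flight they numbered 2, and 0 under each of those settings. The range on leaving out 1 mouse was 0 to 0 in both conditions. Events past the threshold numbered 2 on the ground (1 to 3 when a list position was left out) and 3 after flight (1 to 4). For the triad genes, the other genes named and the events described, 665 of 749 alternatives kept direction and side of the threshold, 53 lost the call and 31 turned direction, none of them of a value that had passed.

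Rescaling by the median ratio turned Jph2 (−0.0043 on the log2 scale) and Bin1 (−0.012) for flight in the gastrocnemius, and between the muscles Ryr1 (−0.015) and Cacnb1 (−0.020) on the ground and Ryr1 after flight (−0.064). The rest turned on leaving out a sample. For flight in the gastrocnemius these were Cacna1s (−0.018 to 0.075), Cacng1 (−0.0078 to 0.214), Jph1 (−0.089 to 0.031), Jph2 (−0.030 to 0.061), Bin1 (−0.035 to 0.054) and Dysf (−0.067 to 0.043), and in the quadriceps Jph2 (−0.156 to 0.054), Bin1 (−0.076 to 0.087) and Dysf (−0.019 to 0.114). Between the muscles they were Cacnb1 on the ground (−0.023 to 0.144) and Ryr1 after flight (−0.043 to 0.069). Among events they were, in the quadriceps, Bin1 exon 12 before exon 17 (−9.23 to 0.558 points), Dysf exon 41 (−43.8 to 2.53), Ryr1 exon 83 (−0.710 to 1.52) and Trdn exon 23 against exon 25 (−2.72 to 0.785), and in the gastrocnemius Jph2 exon 2 against exon 3 (−0.731 to 1.75). The highest value for Bin1 exon 12, Dysf exon 41 and Ryr1 exon 83 came without the third ground sample.

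Ground and flight mice share replicate numbers only by name: same-numbered deviations correlated between −0.180 and 0.111. With the number as a block, 0 triad genes passed in either muscle. No paired analysis was possible for splicing because samples are listed there without names. With 3 samples a group no exact permutation test can go below 0.1, so the calls rest on a spread shared across genes or events, and events of Dysf and Bin1 with under 30 reads in some samples are the least precise.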
